A study of Zea mays with 36 samples.

Results

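Among the annotated maize genes measured in developing embryos, 37 of 44146 reached a maximum around 25 days after pollination in both of the lines studied. The table holds 63340 features in all. A gene was taken when its mean log2(RPKM + 1) at 25 days was at least 1 unit above its means at 15 and 40 days and above its mean at 20 days. It had to do so in high-oil embryos and in low-oil embryos taken separately, with at least 5 RPKM on average at 25 days in both lines and a mean below 1000 RPKM over all libraries. RPKM is a read number scaled by the length of a feature and by the total of its library, so levels of different genes can be compared per length. The genes were thus chosen by the measured values at 15, 20, 25 and 40 days, and every difference between 25 days and 15, 20 or 40 days is given here as a description with no test.

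The study followed embryos of a maize line with high oil content and of a line with low oil content every 5 days between day 15 and day 40 after pollination, which makes 6 stages. There were 3 libraries for each line and stage, 36 in all. Seeds of every group stood in water overnight at room temperature before the embryo was dissected, so this soaking is shared by all stages. Each oil level is represented by 1 line, and oil content cannot be told apart from the other differences between the lines. Whether replicates of a group are separate plants or ears is not in the labels. The p-values thus measure only how far these samples spread, which may be technical.

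The maize embryo stores most of the oil of the kernel, chiefly in the scutellum, the large shield-shaped organ that later feeds the seedling. During the middle of development its cells lay down oil bodies and storage proteins, and later they acquire desiccation tolerance and dry. Transcripts that are abundant only in the middle stages therefore overlap in time with reserve filling and with the onset of maturation. In whole embryos, fewer cells of a type and less RNA per cell cannot be told apart.

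The libraries held 41247297 to 66760746 assigned reads each. The lowest mean correlations of a library to its own group were 0.934 for high-oil 40-day replicate 1, 0.938 for high-oil 35-day replicate 2 and 0.941 for low-oil 40-day replicate 1. No wide gap set these 3 libraries off, as the next lowest value was 0.944. The files do not pair the annotated IDs with gene names, and the reference table, made for another assembly, holds 0 of the 44146 IDs. The 37 genes are therefore given by ID, without names or functions, and markers of the embryo or of neighbouring tissues could not be read.

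The rule was met by 180 genes in high-oil embryos and by 112 genes in low-oil embryos, with 37 genes in both. Of the 12685 annotated genes with the same minimum of 5 RPKM at 25 days in both lines and the same limit on the mean, called comparison genes from here on, 0.292% belonged to the set. All 37 passed the filter for testing, which the minimum of 5 RPKM at 25 days made likely. Just inside the threshold lay Zm00001d043458, Zm00001d000709 and Zm00001d024963, whose smallest margins were 1.001, 1.02 and 1.03 log2 units. Just outside it lay Zm00001d025873, Zm00001d016895 and Zm00001d038453, whose smallest margins were 0.96, 0.94 and 0.93 log2 units. In Zm00001d043458 the limiting margin was that between 25 and 40 days in low-oil embryos, with means of 44.0 RPKM at 25 days and 21.5 RPKM at 40 days.

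**Figure D1:**
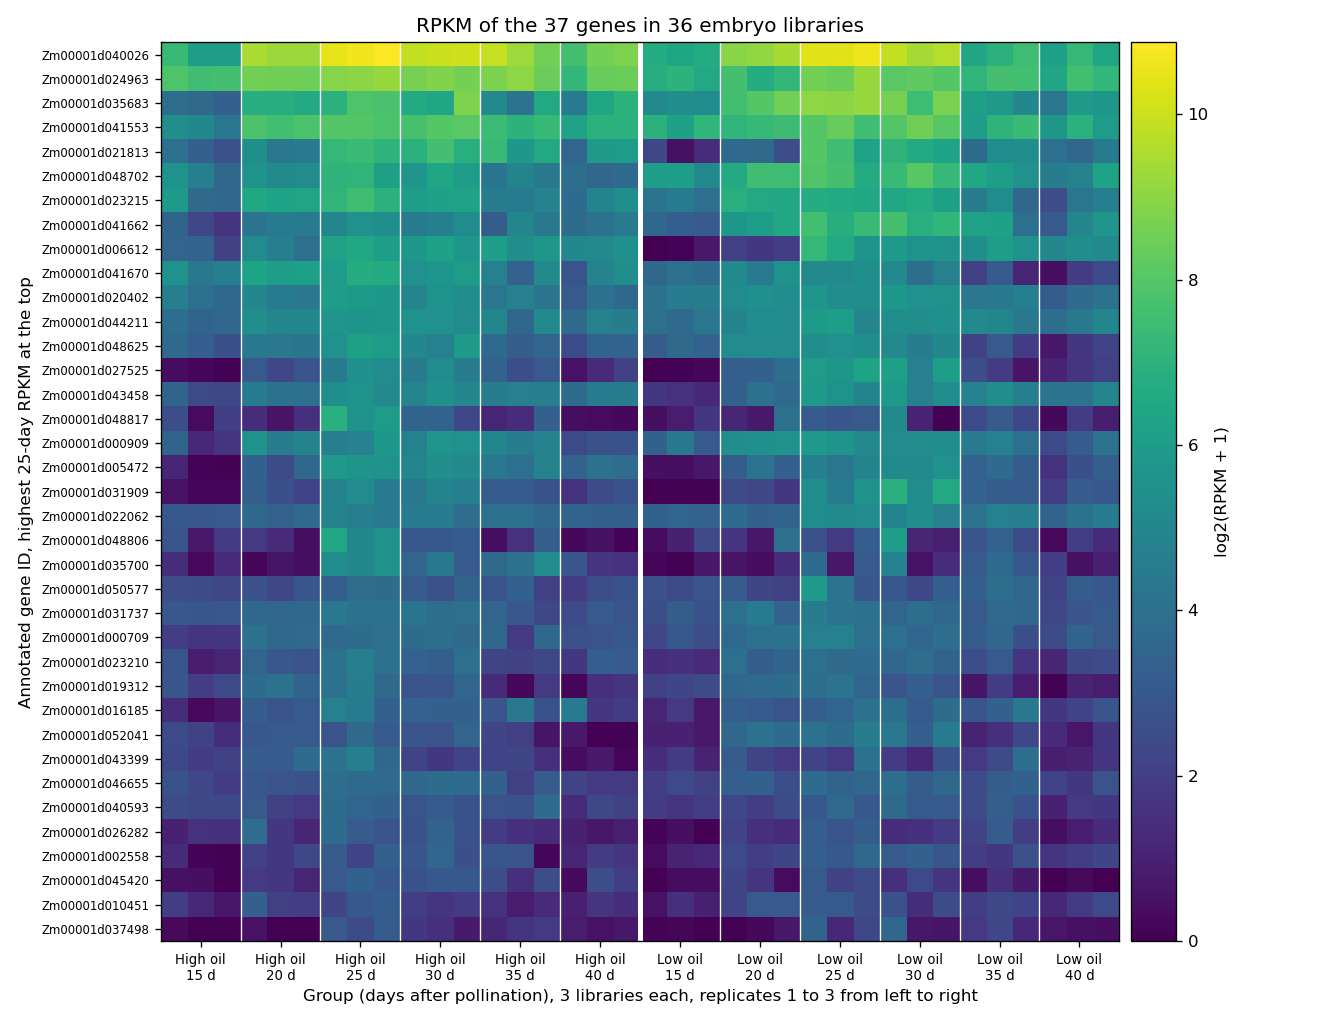
Level of each of the 37 genes (rows, highest 25-day RPKM at the top) in each of the 36 libraries (columns, high-oil libraries on the left, low-oil libraries on the right, days after pollination from 15 to 40 within each side), as log2(RPKM + 1) on the colour scale. The columns at 25 days are the brightest for most rows, and the rows span mean levels from 6.32 to 1632 RPKM in high-oil embryos at that stage.

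The name of the set held in part. In high-oil embryos 33 of the 37 genes had their highest mean at 25 days and 4 at 30 days. In low-oil embryos 27 genes were highest at 25 days, 7 at 30 days and 3 at 35 days, stages that the rule did not use. Both lines were highest at 25 days in 24 genes, and 13 genes were highest later in at least 1 line. Only Zm00001d041553 was highest at 30 days in both lines, and its 25-day and 30-day libraries overlapped in both. These are the stages of the highest means, and libraries of neighbouring stages could overlap.

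The median level of the 37 genes from 15 to 40 days was 4.51, 11.2, 34.9, 18.9, 10.3 and 6.10 RPKM in high-oil embryos. In low-oil embryos the median over the same stages was 2.63, 11.2, 26.6, 24.7, 9.11 and 5.42 RPKM. The medians thus formed a single hump, narrower on its late side in high-oil embryos. Comparison genes had medians between 12.7 and 18.5 RPKM in high-oil embryos and between 14.1 and 19.1 RPKM in low-oil embryos over the 6 stages.

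As a share of all reads assigned in a library, the 37 genes together took 0.0529% ± 0.0209 at 15 days, 0.166% ± 0.0168 at 20 days and 0.366% ± 0.0183 at 25 days in high-oil embryos (SD, n = 3 each). Their share there was 0.241% ± 0.0207 at 30 days, 0.155% ± 0.0302 at 35 days and 0.0941% ± 0.0308 at 40 days. In low-oil embryos the share was 0.0524% ± 0.00218 at 15 days, 0.171% ± 0.0203 at 20 days, 0.338% ± 0.0186 at 25 days, 0.262% ± 0.0299 at 30 days, 0.0893% ± 0.0109 at 35 days and 0.0583% ± 0.0197 at 40 days. The line means lay near each other up to 30 days, and the high-oil mean was above the low-oil mean at 35 and 40 days. Line differences in this share were not tested. A few genes made up most of the summed RPKM of the set, which unlike the share of reads is scaled by length. The most abundant one took 41.4% of the summed 25-day RPKM of the set in high-oil embryos and 35.2% in low-oil embryos, and the 4 most abundant took 65.6% and 66.1%.

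At 25 days the mean over both lines exceeded 100 RPKM in 7 genes, lay between 10 and 100 RPKM in 24 and was below 10 RPKM in 6. Single means ran from 6.32 to 1632 RPKM in high-oil embryos and from 5.15 to 1385 RPKM in low-oil embryos. At 15 days, 7 genes were below 1 RPKM in high-oil embryos and 10 in low-oil embryos, 6 of them in both. At 40 days, 6 genes were below 1 RPKM in high-oil embryos and 4 in low-oil embryos.

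The most abundant gene was Zm00001d040026, with 988 bases. In high-oil embryos it averaged 98.9 ± 56.1, 639 ± 68.9, 1632 ± 221, 1018 ± 78.3, 652 ± 296 and 339.6 ± 121 RPKM from 15 to 40 days (SD, n = 3 each). In low-oil embryos it averaged 97.9 ± 11.2, 580.5 ± 113, 1385 ± 128, 815 ± 130, 129 ± 46.4 and 101.5 ± 41.3 RPKM over the same stages. The line means lay near each other up to 30 days and further apart at 35 and 40 days. Whether the lines differed in the change between 30 and 35 days was tested and did not pass the correction (interaction, limma's adjusted p = 0.22).

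The next in abundance was Zm00001d024963, with 732 bases. It had 480.1, 499.9 and 582 RPKM in the high-oil 25-day libraries and 370.5, 339.7 and 581 RPKM in the low-oil 25-day libraries, which overlapped. It was called higher in high-oil embryos at 20 days (1.32 log2 units, limma's adjusted p = 0.0013) and at 35 days (1.25 log2 units, limma's adjusted p = 0.0022). Its course was shallow in high-oil embryos, with means of 206 RPKM at 15 days and 272 RPKM at 40 days, which placed it near the threshold. The third was the shortest gene of the set, Zm00001d035683, with 216 bases. In the high-oil 25-day libraries it had 123.1, 234.4 and 216 RPKM, and in the low-oil 25-day libraries 513.5, 499.7 and 588 RPKM. The ranges of the lines did not overlap, but limma's adjusted p for the 25-day line difference was 0.076 and the gene was not called.

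Of the other members among the 8 most abundant, Zm00001d023215 stood at 137.4, 186.7 and 127 RPKM in the high-oil 25-day libraries, against 106, 97.9 and 91.0 RPKM in the low-oil 25-day libraries. The lines did not overlap at that stage, but limma's adjusted p for the line difference was 0.43 and the gene was not called. In low-oil embryos its means at 20, 25 and 30 days were 97.4 ± 11.7, 98.3 ± 7.43 and 87.6 ± 13.8 RPKM (SD, n = 3 each), a plateau within the spread of the replicates, whereas in high-oil embryos they were 83.0 ± 4.85, 150.3 ± 31.9 and 72.4 ± 4.14 RPKM.

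The increase before 25 days ranged widely. The ratio of the 25-day mean to the 15-day mean had a median of 6.84 over the 37 genes in high-oil embryos, with a range of 2.53 to 217. In low-oil embryos the median was 6.20 and the range 2.17 to 1971. The ratio of the 25-day mean to the 40-day mean had a median of 3.81 in high-oil embryos (1.91 to 303) and of 4.45 in low-oil embryos (2.04 to 69.1). The largest ratios belong to genes with very few reads in the lower stage and carry the counting error of those reads.

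Ranked by the smaller log2 difference of the lines between 15 and 25 days, the steepest increase was that of Zm00001d027525, with 1036 bases. It had 21.9, 42.7 and 37.5 RPKM in the high-oil 25-day libraries, 5183 reads together, against 0.299, 0.149 and 0.0234 RPKM in the high-oil 15-day libraries, 23 reads together. In low-oil embryos it had 61.2, 52.2 and 77.7 RPKM at 25 days, 11462 reads together, against 0, 0.0441 and 0.132 RPKM at 15 days, 8 reads together. Every 25-day library was far above every 15-day library of its line.

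Zm00001d031909, with 1587 bases, behaved alike at 15 days, where its 3 high-oil libraries held 51 reads and its 3 low-oil libraries 4 reads. At 25 days it had 27.9, 36.7 and 21.7 RPKM in high-oil embryos and 38.9, 22.05 and 45.2 RPKM in low-oil embryos. Its low-oil mean was higher still at 30 days, although replicate 2 lay within the 25-day range. The gene had 117.4, 39.4 and 94.1 RPKM there, against 19.4, 28.7 and 24.9 RPKM in the high-oil 30-day libraries. It was the member whose 30-day mean lay furthest above its 25-day mean over both lines, by 0.46 log2 units, followed by Zm00001d041553 (0.12) and Zm00001d005472 (0.07). Zm00001d005472 ranked next by increase, with means of 50.2 RPKM at 25 days and 0.431 RPKM at 15 days in high-oil embryos. In low-oil embryos its means were 24.1 RPKM at 25 days and 0.436 RPKM at 15 days.

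**Figure D2:**
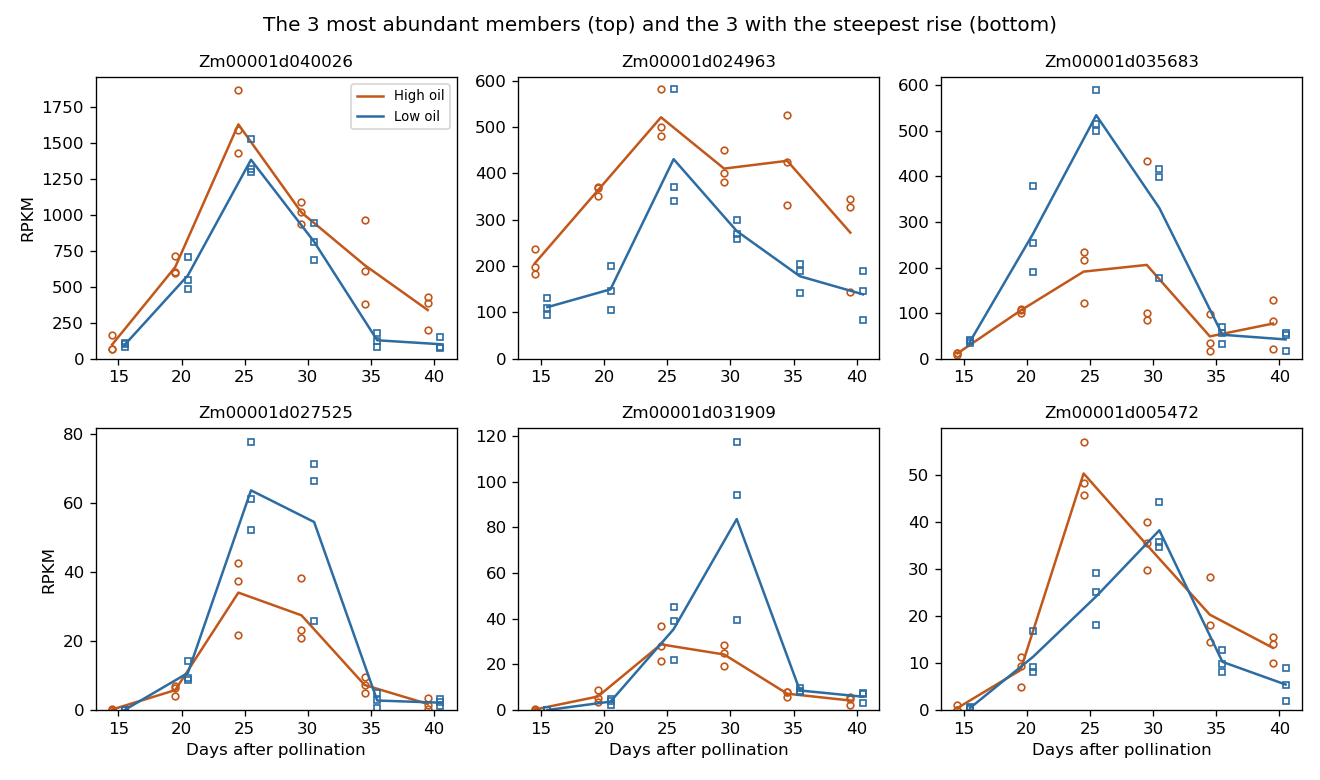
RPKM (vertical axis, from 0) against days after pollination for the 3 most abundant members (top) and the 3 with the steepest increase (bottom). Circles and the orange line are the high-oil libraries and their mean, squares and the blue line the low-oil ones, with the points of the lines offset sideways. The low-oil mean of Zm00001d031909 is highest at 30 days, and Zm00001d040026 has 85.0 to 177 RPKM in low-oil embryos at 35 days, below all high-oil libraries of that stage.

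Much of the increase preceded 25 days. On the log2(RPKM + 1) scale, a median of 54.3% of the difference between 15 and 25 days was already present at 20 days in high-oil embryos and 66.8% in low-oil embryos. The 25-day mean was above the 20-day mean by a median of 1.07 log2 units in high-oil embryos and 0.95 in low-oil embryos. It was at least 1 unit above in 13 genes in both lines, whereas 5 genes lay less than 0.5 units above in both. The set thus held genes with a step of 1 log2 unit or more beside genes already near their 25-day level at 20 days.

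The late side was broader, but this was at least partly built into the set. The rule asked for a 25-day mean above that of the stage before and set no condition on 30 days. The 25-day mean was above the 30-day mean by a median of 0.47 log2 units in high-oil embryos and 0.28 in low-oil embryos, with ranges of -0.24 to 3.07 and -1.14 to 1.501. In 10 genes the means at 25 and 30 days lay within 0.5 units of each other in both lines, and in 0 genes was 25 days at least 1 unit higher in both. Of the difference between 25 and 40 days, a median of 27.5% was reached by 30 days and 70.1% by 35 days in high-oil embryos, and 17.3% and 64.4% in low-oil embryos. The 25-day mean was at least 1 unit above the 30-day mean in 7 genes in high-oil embryos and in 2 in low-oil embryos. For most of the genes, 25 days was thus not set off from 30 days by a step of that size in either line.

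Single libraries were compared as well. All 25-day libraries were above all 15-day libraries of the same line in 37 genes in high-oil embryos and 34 in low-oil embryos, beside 14.6% and 15.8% of all features tested. They were above all 40-day libraries in 35 and 32 genes (21% and 23.4% of all features tested), and above all 20-day libraries in 27 and 18 (10.4% and 12.6%). Against 30 days they stood clear in 16 genes in high-oil embryos and 7 in low-oil embryos (11.3% and 19.5%). All these counts rest on the 25-day values that chose the genes, and nothing is read from them beyond the overlap of single libraries. In 29 genes the 25-day libraries exceeded all 15-day and 40-day libraries in both lines (0.742% of all features tested), and the other 8 had overlapping libraries although their means passed the rule.

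The level at 40 days did not return to that at 15 days in every gene. It was at least 1 log2 unit higher at 40 days than at 15 days in both lines in 9 genes, at least 1 unit lower in both in 1, and within 1 unit in both in 14. The median difference was 0.47 log2 units in high-oil embryos and 0.25 in low-oil embryos. The gene that was lower in both lines was Zm00001d019312. Its mean was 1.36 RPKM at 40 days and 4.51 RPKM at 15 days in high-oil embryos, and 0.669 RPKM at 40 days and 3.95 RPKM at 15 days in low-oil embryos.

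The change between 30 and 35 days was not used by the rule and could be tested. The spread behind the test came from all 36 libraries, including those that chose the genes. Of the 37 genes, 14 fell between these stages, averaged over the lines, and the 4 with a change above 0 were not called (limma on log2(RPKM + 1), calls at a Benjamini-Hochberg adjusted p under 0.05 with a change of 1 log2 unit or more). These 14 genes are 37.8% of the set, beside 1.01% of the 28048 features tested and 1.82% of the 12685 comparison genes, while 0.738% of all features tested rose. Because the rule fixed a lower level at 40 days, a fall in some later interval was partly built into the set. Among 775 comparison genes outside the set that were also at least 1 log2 unit higher at 25 than at 40 days in both lines, 25.9% fell. The median change was -0.74 log2 units in the 37 genes, -0.75 in these declining genes and -0.01 over all features tested. By its median, the set changed between 30 and 35 days like other genes that decline late.

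The change was below 0 in 33 of the 37 genes. All 35-day libraries were below all 30-day libraries in 20 of the 37 genes in high-oil embryos, beside 11.5% of all features tested and 68.3% of the 775 other declining genes. In low-oil embryos they were in 21 of the 37, beside 10.9% and 57.2%. The largest fall was that of Zm00001d027525. It had 9.58, 5.07 and 7.16 RPKM in the high-oil 35-day libraries, against 21.0, 38.3 and 23.1 RPKM in the high-oil 30-day libraries. In low-oil embryos it had 4.99, 2.84 and 0.470 RPKM at 35 days, against 71.3, 25.7 and 66.5 RPKM at 30 days. The stages did not overlap in either line, and the change averaged over the lines was -2.87 log2 units (SE 0.30, limma's adjusted p = 1.2e-06).

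Next came Zm00001d031909. It had 7.92, 7.93 and 5.65 RPKM in the high-oil 35-day libraries, against 19.4, 28.7 and 24.9 RPKM in the high-oil 30-day libraries. In low-oil embryos it had 9.57, 8.22 and 7.93 RPKM at 35 days, against 117.4, 39.4 and 94.1 RPKM at 30 days. The stages again stood apart in both lines, and the averaged change was -2.32 log2 units (SE 0.25, limma's adjusted p = 2.0e-06). The count of 14 was 15 without the 3 libraries with the lowest correlations, and it lay between 12 and 16 when any 1 library of these stages was left out.

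**Figure D3:**
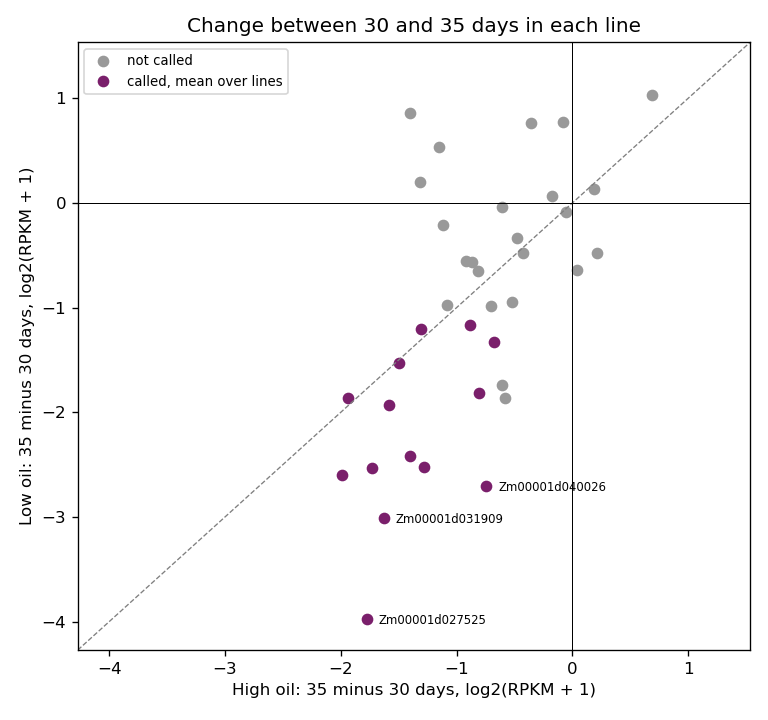
Change between 30 and 35 days in high-oil embryos (horizontal axis) and in low-oil embryos (vertical axis), as differences of mean log2(RPKM + 1), 1 point per gene. Purple points are the 14 genes called for the change averaged over the lines, grey points the others, and the dashed line marks equal change. Zm00001d040026 lies well below the dashed line, with a larger fall in low-oil embryos.

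Whether the lines differed in this change was tested as an interaction. In 0 of the 37 genes did the difference pass the threshold, beside 2 of 28048 features, or 0.00713%. At an unadjusted p below 0.05 there were 6 of the 37, beside 7.31% of all features tested, and limma-voom on the reads recovered from the RPKM values also called 0. The smallest p among the 37 was that of Zm00001d040026. It had 967, 611 and 379 RPKM in the high-oil 35-day libraries, against 937.5, 1023 and 1094 RPKM at 30 days. In low-oil embryos it had 85.0, 124.4 and 177 RPKM at 35 days, against 947, 686 and 812 RPKM at 30 days. The stages overlapped in high-oil embryos and stood far apart in low-oil embryos, with a change in high-oil embryos minus that in low-oil embryos of 1.96 log2 units (SE 0.47, limma's adjusted p = 0.22). The difference in change between the lines thus did not pass the correction.

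The rule set no contrast between the lines, but it used the libraries at 15, 20, 25 and 40 days. The line differences at these stages and their average over stages therefore share values with the choice of genes. The means at 30 and 35 days entered the rule only through the limit on the mean over all libraries. Tests at 30 and 35 days still used a spread estimated over all 36 libraries, including those that chose the genes. At 15 days, 5 of the 37 genes were called, 3 higher and 2 lower in high-oil embryos, beside 5.72% of all features tested and 2.03% of comparison genes. At 20 days 4 were called, 2 in each direction (background 6.85% and 2.71%). At 25 days 6 were called, 5 higher and 1 lower (7.36% and 2.88%). At 30 days 4 were called, 1 higher and 3 lower (6.3% and 2.38%). At 35 days 8 were called, 7 higher and 1 lower (8.27% and 4.51%), and at 40 days 6, with 5 higher and 1 lower (6.88% and 3.06%).

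The counts at the stages outside the rule are 10.8% of the 37 genes at 30 days and 21.6% at 35 days. By the median, the set had no common direction. The median line difference lay between -0.17 and 0.14 log2 units at the 6 stages, against -0.13 to -0.03 over all features tested. Over the 6 stages together, the called genes were more often higher than lower in high-oil embryos. In all, 20 genes were called at 1 or more stages, beside 17.2% of all features tested and 9.6% of comparison genes. Of these genes 15 were higher in high-oil embryos (background 7.38% and 3.37%) and 5 lower (10% and 6.47%), and 4 of the 6 stages used values that had chosen the genes. None was called in both directions and none at all 6 stages, and 10 were called at a single stage.

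**Figure D4:**
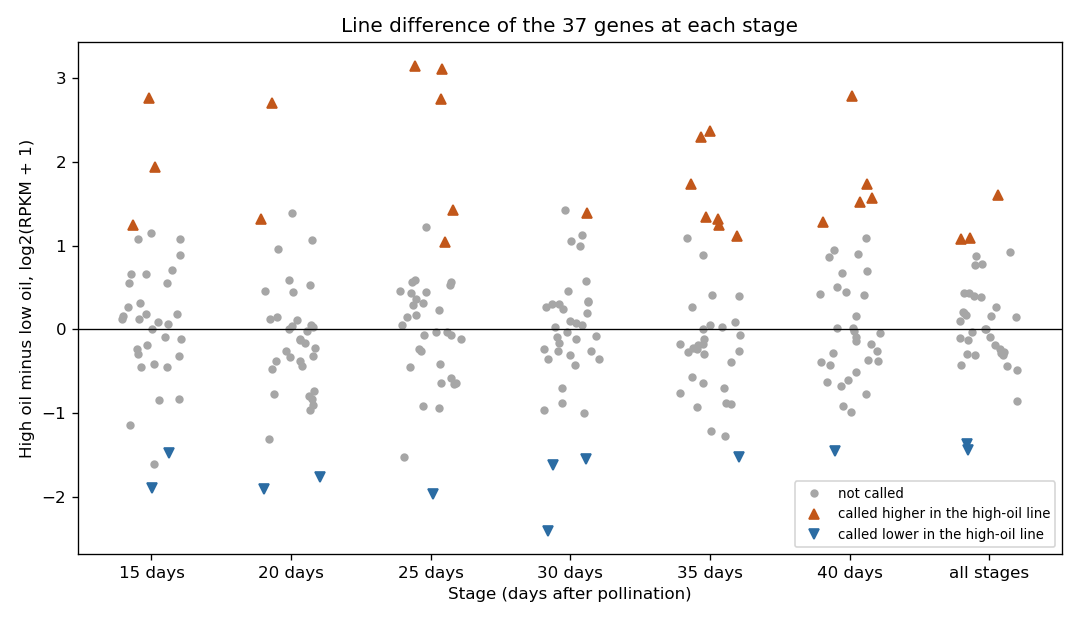
Line difference of each of the 37 genes at each stage and averaged over the stages, as high oil minus low oil on the log2(RPKM + 1) scale. Upward orange triangles are genes called higher in high-oil embryos, downward blue triangles genes called lower, and grey circles genes not called. The genes scatter on both sides of 0 at every stage, and 7 of the 8 genes called at 35 days are above 0.

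Some stage counts rested on single libraries. At 25 days the count of 6 was 1 without high-oil replicate 1, 2 without low-oil replicate 2 and 3 without low-oil replicate 1. At 35 days the count of 8 was 3 without high-oil replicate 1 and 4 without high-oil replicate 3 or low-oil replicate 1. At 15 days the count of 5 was 3 without high-oil replicate 2 or low-oil replicate 2. At 30 days the count of 4 was 2 without high-oil replicate 1, and at 40 days the count of 6 was 3 without high-oil replicate 2. Without the 3 libraries with the lowest correlations the counts at 35 and 40 days were 10 and 7.

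At 15 and 20 days the line difference with the smallest adjusted p among the 37 genes was that of Zm00001d006612. At 15 days it had 10.6, 9.85 and 3.41 RPKM in the high-oil libraries, against 0, 0.0656 and 0.654 RPKM, or 11 reads together, in the low-oil libraries. At 20 days it had 36.8, 24.1 and 15.1 RPKM in the high-oil libraries, against 3.12, 2.37 and 2.98 RPKM in the low-oil libraries. Every high-oil library was above every low-oil library at both stages. The line difference was 2.77 log2 units at 15 days (SE 0.34, limma's adjusted p = 3.4e-07) and 2.70 at 20 days (SE 0.34, limma's adjusted p = 5.0e-07). With so few low-oil reads at 15 days the size there depended on the scale, with 4.96 log2 units at a pseudocount of 0.1 and 5.91 with limma-voom, and the call held in both.

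At 25 days the same gene had 75.3, 87.2 and 64.4 RPKM in the high-oil libraries, against 148, 96.4 and 48.9 RPKM in the low-oil libraries. These ranges overlapped, and the difference was -0.24 log2 units with an adjusted p of 0.69 (limma). From 30 days on the adjusted p of this gene was 0.71 or more at each stage. Whether the line difference itself changed between stages was not tested.

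In the opposite direction at 15 days was Zm00001d041553, the gene highest at 30 days in both lines. It had 40.0, 32.9 and 18.3 RPKM in the high-oil libraries, against 125.7, 74.1 and 143.1 RPKM in the low-oil libraries. No library of one line reached the range of the other, and the difference was -1.89 log2 units (SE 0.32, limma's adjusted p = 6.0e-05).

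At 35 and 40 days the smallest adjusted p belonged to the most abundant gene. Zm00001d040026 had 967, 611 and 379 RPKM in the high-oil 35-day libraries, against 85.0, 124.4 and 177 RPKM in the low-oil 35-day libraries. At 40 days it had 203, 385 and 431 RPKM in the high-oil libraries, against 73.6, 149 and 82.1 RPKM in the low-oil libraries. All high-oil libraries were above all low-oil ones, by 2.29 log2 units at 35 days (SE 0.33, limma's adjusted p = 6.2e-06) and 1.73 at 40 days (SE 0.33, limma's adjusted p = 0.00034). At 40 days the call was lost when only the 2 compared groups were fitted (adjusted p = 0.068). This gene alone carried much of the reads of the set, so its late line difference moves with the higher share of reads in high-oil embryos at 35 and 40 days.

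Averaged over the 6 stages, 5 genes were called, 3 higher and 2 lower in high-oil embryos, which is 13.5% of the set beside 5.83% of all features tested and 1.61% of comparison genes. The largest positive difference was that of Zm00001d041670. At 25 days it had 63.0, 106.3 and 97.8 RPKM in the high-oil libraries, against 33.6, 35.2 and 41.6 RPKM in the low-oil libraries. At 40 days it had 6.09, 28.4 and 40.8 RPKM in the high-oil libraries, against 0.342, 2.70 and 4.38 RPKM in the low-oil libraries. The lines did not overlap at either stage. The line difference was called at 40 days (limma's adjusted p = 0.00042) but not at 25 days (limma's adjusted p = 0.13). The high-oil mean was higher at all 6 stages, and the gene was called at 2 of them, 35 and 40 days. The averaged difference was 1.61 log2 units (SE 0.22, limma's adjusted p = 7.6e-07).

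Next was Zm00001d021813, of 336 bases, which is also among the most abundant and the steepest. At 35 days it had 157.2, 54.7 and 92.9 RPKM in the high-oil libraries, against 13.2, 38.1 and 39.5 RPKM in the low-oil libraries. At 25 days it had 149.7, 168 and 134.2 RPKM in the high-oil libraries, against 254.5, 182.7 and 76.9 RPKM in the low-oil libraries. The lines stood apart at 35 days and overlapped at 25 days. The averaged difference was 1.09 log2 units (SE 0.23, limma's adjusted p = 0.00036).

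The largest negative difference was that of Zm00001d041662, whose ID number is 8 below that of Zm00001d041670. At 30 days it had 21.4, 24.8 and 37.5 RPKM in the high-oil libraries, against 203.9, 111.7 and 141.8 RPKM in the low-oil libraries. At 25 days it had 29.5, 44.8 and 41.2 RPKM in the high-oil libraries, against 191, 108.9 and 163.4 RPKM in the low-oil libraries. The lines stood apart at both stages, with a difference of -2.40 log2 units at 30 days (SE 0.55, limma's adjusted p = 0.0027). The averaged difference was -1.45 log2 units (SE 0.22, limma's adjusted p = 5.5e-06).

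Zm00001d048702 was also lower in high-oil embryos, by 1.37 log2 units on average over the stages (-1.37, SE 0.18, limma's adjusted p = 2.7e-07), and was called at 4 of the 6 stages. Its calls at 35 and 40 days were lost when 1 library was left out, high-oil or low-oil replicate 1 at 35 days (-1.38 and -1.27 log2 units) and high-oil replicate 2 or 3 or low-oil replicate 3 at 40 days (-1.35, -1.47 and -0.91). At 20 days it had 47.3, 34.6 and 36.4 RPKM in the high-oil libraries, against 98.3, 185 and 180.1 RPKM in the low-oil libraries. The lines did not overlap there, while at 25 days, with 134.6, 136 and 72.1 RPKM in the high-oil libraries against 242.6, 200.4 and 103.2 RPKM in the low-oil libraries, they did. In the averaged comparison, the calls of Zm00001d041670, Zm00001d021813, Zm00001d041662 and Zm00001d048702 held with any 1 of the 36 libraries left out and under each other setting tried, while that of the fifth gene was lost with limma-voom (adjusted p = 0.084) and without low-oil 25-day or 30-day replicate 2 (0.93 and 0.94 log2 units).

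By the median, replicates of the 37 genes spread more widely than those of comparison genes at 30 and 35 days, which the rule did not use. At 30 days the median coefficient of variation was 21.7% in high-oil embryos and 28.9% in low-oil embryos, against 13.7% and 11.9% in comparison genes. At 35 days it was 45.4% and 36.5%, against 20.9% and 16.6% in comparison genes. At 25 days, where the choice of genes enters, it was 22.8% and 27.1%, against 11.9% and 14.2%, and the highest was 50.8% in high-oil embryos and 100.7% in low-oil embryos. At 1 stage the standard error of a line difference had a median of 0.41 log2 units in members and 0.20 in comparison genes. A difference of a given size was thus harder to call here. Absolute line differences were also larger by the median, 0.33 against 0.20 log2 units at 30 days and 0.56 against 0.24 at 35 days. How the wider spread affected the counts of calls was not tested.

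A common pattern in the low-oil 30-day libraries was seen in several members. In 4 genes, picked after their values were seen, low-oil 30-day replicate 1 was at least 2 log2 units above replicates 2 and 3. Zm00001d048817 had 34.9 RPKM in replicate 1, 1.13 in replicate 2 and 0.0431 in replicate 3 of that group. Zm00001d048806 had 67.0, 1.27 and 0.949 RPKM in these libraries, Zm00001d035700 had 27.1, 0.463 and 1.63 RPKM, and Zm00001d037498 had 11.5, 0.638 and 0.534 RPKM. The first replicate was thus high and the other two low in all 4 genes.

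The same gap occurred in 54 of the 28048 features tested. A range of at least 2 log2 units among the low-oil 30-day libraries was found in 4 of the 37 genes, or 10.8%, and in 1.11% of comparison genes. The deviations of the 4 genes from their group means had Pearson's r between 0.40 and 0.86 for the 6 pairs over the 33 libraries other than the low-oil 30-day ones, which had chosen them. The median over the 666 pairs of all members was 0.24 in the same libraries. These correlations are descriptions over libraries that the genes share. For Zm00001d048806 and Zm00001d048817, which have the same length, r of the deviations was 0.92 over all 36 libraries. Whether this pair shares reads was not tested, so the 4 genes may not count separately. The low-oil 30-day mean of these 4 genes rests on 1 library.

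**Figure D5:**
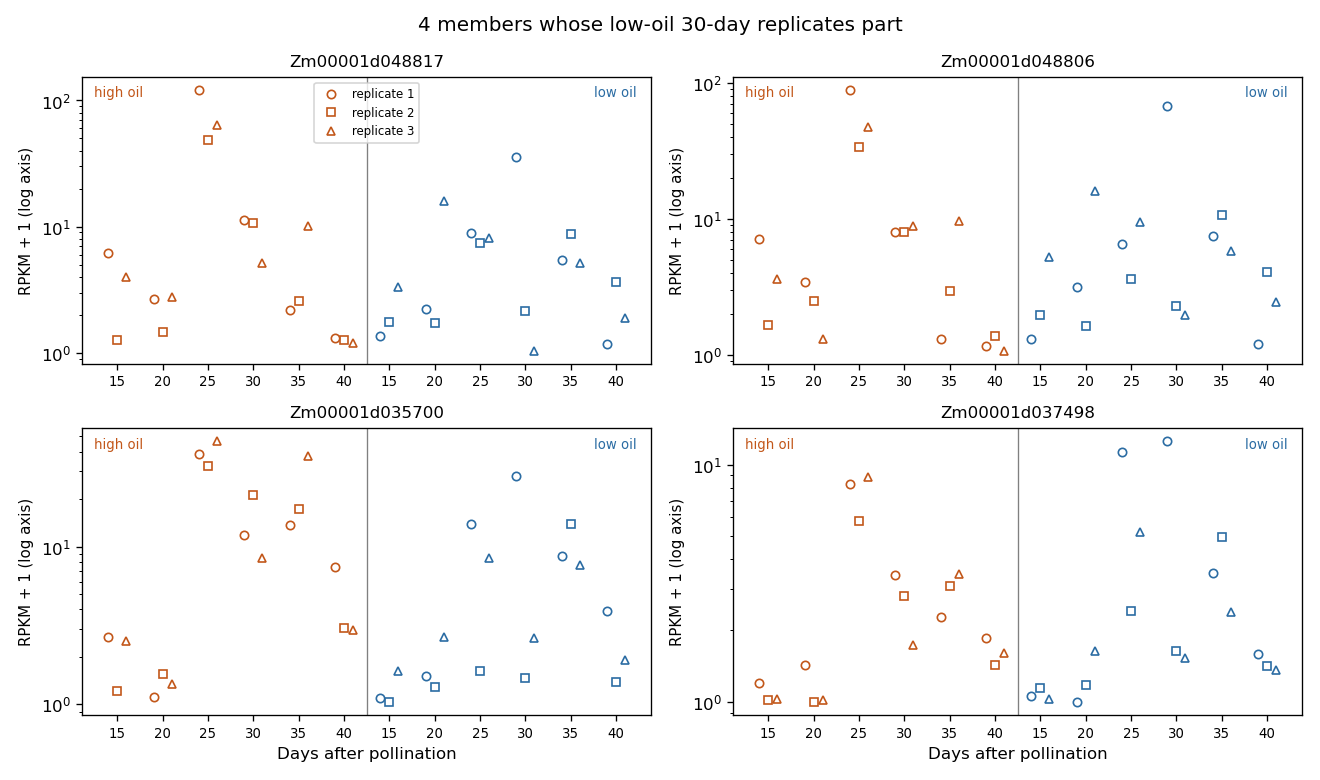
RPKM + 1 on a log axis in each library for 4 members, high-oil line (orange) left of the dividing line and low-oil line (blue) right of it, by days after pollination, with a symbol for each replicate number. At 30 days in low-oil embryos replicate 1 lies far above replicates 2 and 3 in all 4 genes.

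Of these 4 genes, 3 were among the 5 called higher in high-oil embryos at 25 days. At that stage Zm00001d048817 had 119.6, 47.4 and 62.5 RPKM in the high-oil libraries, against 7.90, 6.41 and 7.10 RPKM in the low-oil libraries. The lines stood apart by 3.15 log2 units (SE 0.86, limma's adjusted p = 0.012). Zm00001d048806 had 87.4, 33.0 and 46.6 RPKM in the high-oil libraries, against 5.497, 2.59 and 8.49 RPKM in the low-oil libraries, a difference of 3.11 log2 units (SE 0.93, limma's adjusted p = 0.020).

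Again no libraries of the lines overlapped. Without high-oil 25-day replicate 1 the adjusted p was 0.069 for Zm00001d048817 and 0.10 for Zm00001d048806, and without low-oil 25-day replicate 2 it was 0.084 for Zm00001d048806. With a pseudocount of 0.1 it was 0.080 and 0.072, so neither call held in every setting. In the high-oil libraries of all other stages, Zm00001d048817 had at most 10.3 RPKM and Zm00001d048806 at most 8.64 RPKM. Among high-oil libraries those of 25 days therefore stood alone in both genes, while low-oil 30-day replicate 1 of Zm00001d048806, at 67.0 RPKM, was above 2 of its 3 high-oil 25-day libraries.

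Members were shorter than other genes, as read from the RPKM values and the recovered reads. Their median length was 1116 bases, with a range of 216 to 2533, against 1661 bases in comparison genes and 1559 bases in all 23757 annotated genes tested.

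Some ID numbers lay close together, though a gap between ID numbers gives no distance in bases. There were 4 pairs of members within 20 ID numbers and 0 within 2. Zm00001d023210 and Zm00001d023215, 5 numbers apart, had log2 values with r = 0.94 over the 36 libraries, and Zm00001d048806 and Zm00001d048817, 11 apart, had r = 0.96 and the same length of 801 bases. Zm00001d041662 and Zm00001d041670 had r = 0.16, and Zm00001d035683 and Zm00001d035700, 17 apart, had r = 0.18. These r pool both lines, so they include line differences, and all members were chosen for a similar course over stages. For deviations from group means, r was 0.92, 0.92, 0.54 and -0.03 for the pairs in the same order. Near IDs thus held both high and low correlations. These values are descriptions over libraries that share their stages, and since sequences were not used here, whether the pairs share reads through similar sequence was not tested.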

How the data were processed

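Polyadenylated RNA of maize embryos was selected with oligo(dT), made into NEBNext Ultra libraries and sequenced as paired ends, per the labels' protocols. The authors deposited 1 table of RPKM values, with 0 columns left unused here. FastQC, TopHat2, Cufflinks and the build B73 RefGen_v4 are named per the submitters' processing notes, while the sources used here do not give the counting tool, the annotation release or whether strand was used. Groups, stages and replicate numbers come from the labels. The 37 genes and the comparisons were chosen with earlier results of these data known.

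The deposited RPKM values were whole multiples of 1 read: 100% of the 51853 features with a value above 0 resolved to whole reads within 0.0001 reads, which gave the totals and lengths. Summed over features, these reads came within 2701 of the implied total in every library. The test was limma 3.58.1 in R 4.3.3 on log2(RPKM + 1), with 1 mean for each of the 12 groups, a mean-variance trend and Benjamini-Hochberg adjustment. It covered the 28048 features that reached 1 RPKM in 3 or more libraries, and a call needed an adjusted p under 0.05 with a change of 1 log2 unit or more. Fold changes on this scale understate the change of low genes. The script was tested on simulated data. Tables and figures were made with Python 3.11.15, pandas 2.3.3, numpy 2.4.6 and matplotlib 3.10.9.

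Genes named in the text were the 8 most abundant at 25 days, the 6 with the steepest increase between 15 and 25 days, the largest called differences of each comparison (at most 2 in each direction), the 3 on each side of the threshold, the 3 highest at 30 days relative to 25 days, and near IDs. The 4 genes with a split low-oil 30-day group, and Zm00001d019312, were chosen after their values were seen. Gene lists and cell type markers defined by names could not be applied. Alternatives were other scalings, filters, pseudocounts and call rules, limma-voom on recovered reads, a fit of compared groups only, a replicate block, and libraries left out.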

Additional observations from a re-analysis of the deposited data

How the results depend on the processing

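Leaving out 1 library at a time gave 3 to 4 called genes at 15 days, 3 to 4 at 20 days, 1 to 7 at 25 days, 2 to 5 at 30 days, 3 to 8 at 35 days, 3 to 8 at 40 days, 4 to 5 averaged over stages, 12 to 16 for the change between 30 and 35 days and 0 for its interaction with line. The rule itself gave 29 genes without low-oil 25-day replicate 1 (26 of them shared with the 37) and 49 without low-oil 25-day replicate 3 (35 shared). It gave 44 genes with a pseudocount of 0.1 (37 shared), 44 with median-of-ratios scaling (33 shared) and, in a setting added after seeing the data, 30 without the 3 libraries with the lowest correlations (25 shared). With a pseudocount of 0.1 the counts were 2 in place of 6 at 25 days and 5 in place of 8 at 35 days. With no filter the 35-day count was 5. Fitting the compared groups only gave 3 genes at 35 days and 0 at 40 days, where limma on all groups had 6 calls and 9 genes at an unadjusted p below 0.05. Limma-voom gave 3 in place of 5 genes at 15 days, and the adjusted p alone, with no minimum change, gave 14 in place of 5 averaged over stages. The cause of these shifts was not tested, apart from the smaller groups or the looser call rule that define them. No direction turned in the results recomputed.

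With the replicate number as a block, the counts were 5, 4, 6, 4, 8 and 6 at the 6 stages, 5 averaged over them, 14 for the change between 30 and 35 days and 0 for the interaction, as without it. The block fitted an effect per number common to all stages, so it could not show whether the numbers pair samples within a stage. Deviations of same-numbered libraries correlated between -0.296 and 0.394, over 0.1 in 7 of 24 pairs. Between the lines they were 0.394, 0.308 and 0.098 at 40 days, and -0.110, -0.296 and -0.188 at 35 days. Whether samples are paired was thus not settled. At 41247297 reads or more per library, depth limited the ratios only where a gene had few reads, as at 15 days, and intervals of such reads would cover counting error only.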
